A study of Mus musculus with 19 samples.

Results

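Perigonadal fat from C57BL/6 mice at peak weight was compared between 2 models of weight gain, in fed mice. The comparison holds 10 of the 19 RNA sequencing libraries of the series, chosen by their labels: the 6 libraries with the diet Ensure and the treatment fed, and the 4 libraries with a 60% high-fat diet (HFD) and the treatment fed. The mice are of 1 strain, no genetic change is labelled, and whole tissue was sampled, so adipocytes, vessels, connective tissue and immune cells are pooled in each value. Age and sex are not given. Ensure is a liquid nutrition drink; diet here stands for all that differs between the 2 models, and how each one was overfed is not given. Libraries are named by diet and by the number in their title, HFD 21, 22, 25 and 27 and Ensure 1, 9, 10, 12, 16 and 18. The other 9 libraries, 4 HFD and 5 Ensure, come from mice at 24 hours without feeding and are used to set a second, separate diet comparison beside the fed one. Whether every library comes from its own animal is not stated, so the p-values cover the spread among libraries, which may be technical in part.

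Adipocytes make fatty acids from carbohydrate through a short chain of enzymes. Citrate leaves the mitochondrion, is cleaved to acetyl-CoA, and is built into palmitate, which is then elongated, desaturated and stored as triglyceride. Transcription of these enzymes is driven by the factors SREBP-1c and ChREBP, and that of the cholesterol enzymes by SREBP-2; insulin and dietary carbohydrate raise the fatty acid branch, and dietary fat lowers it. Obese perigonadal fat also gathers immune cells. Macrophages that surround dying adipocytes and load lipid, known as lipid-associated macrophages, carry Trem2, Gpnmb and Itgax, and mast cells carry proteases in their granules.

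Across 16015 genes tested, 335 were higher and 347 lower with Ensure at an adjusted p under 0.05, which is 4.26% of the genes tested, 2.09% higher and 2.17% lower. The median log2 fold change, always Ensure minus HFD, was 0.71 among the higher genes and -0.94 among the lower genes, against -0.04 over all genes. More than 2-fold differences numbered 101 higher and 164 lower, and more than 4-fold differences 33 and 75. Of the 682 called genes, 582 had no overlap between the 4 HFD and the 6 Ensure libraries, as had 13.3% of all genes tested (5.89% higher, 7.37% lower). The edgeR test scaled by total counts instead of TMM gave 336 higher and 517 lower genes. The share called was 9.68% by DESeq2, 34% by limma-voom with quality weights and 19.8% in an edgeR fit of the 10 fed libraries alone. It was 3.39% without 5 libraries of the series rich in genes of the reproductive tract, named below. That fit left 4 HFD and 4 Ensure fed libraries. The gene lists described below differed widely in their share of calls. On the lower side, mast cell markers had 66.7% called and lipid-associated macrophage markers 42.9%. On the higher side, fatty acid synthesis had 56.2%, collagens 35.3% and cholesterol synthesis 27.3%. Brown and beige fat, clock and cholesterol efflux genes had 28.6 to 30.8%, with calls in both directions. Among the lists with at least 1 called gene, neutrophil markers had the highest median, 3.41, with several members at or near 0 counts in HFD.

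**Figure D1:**
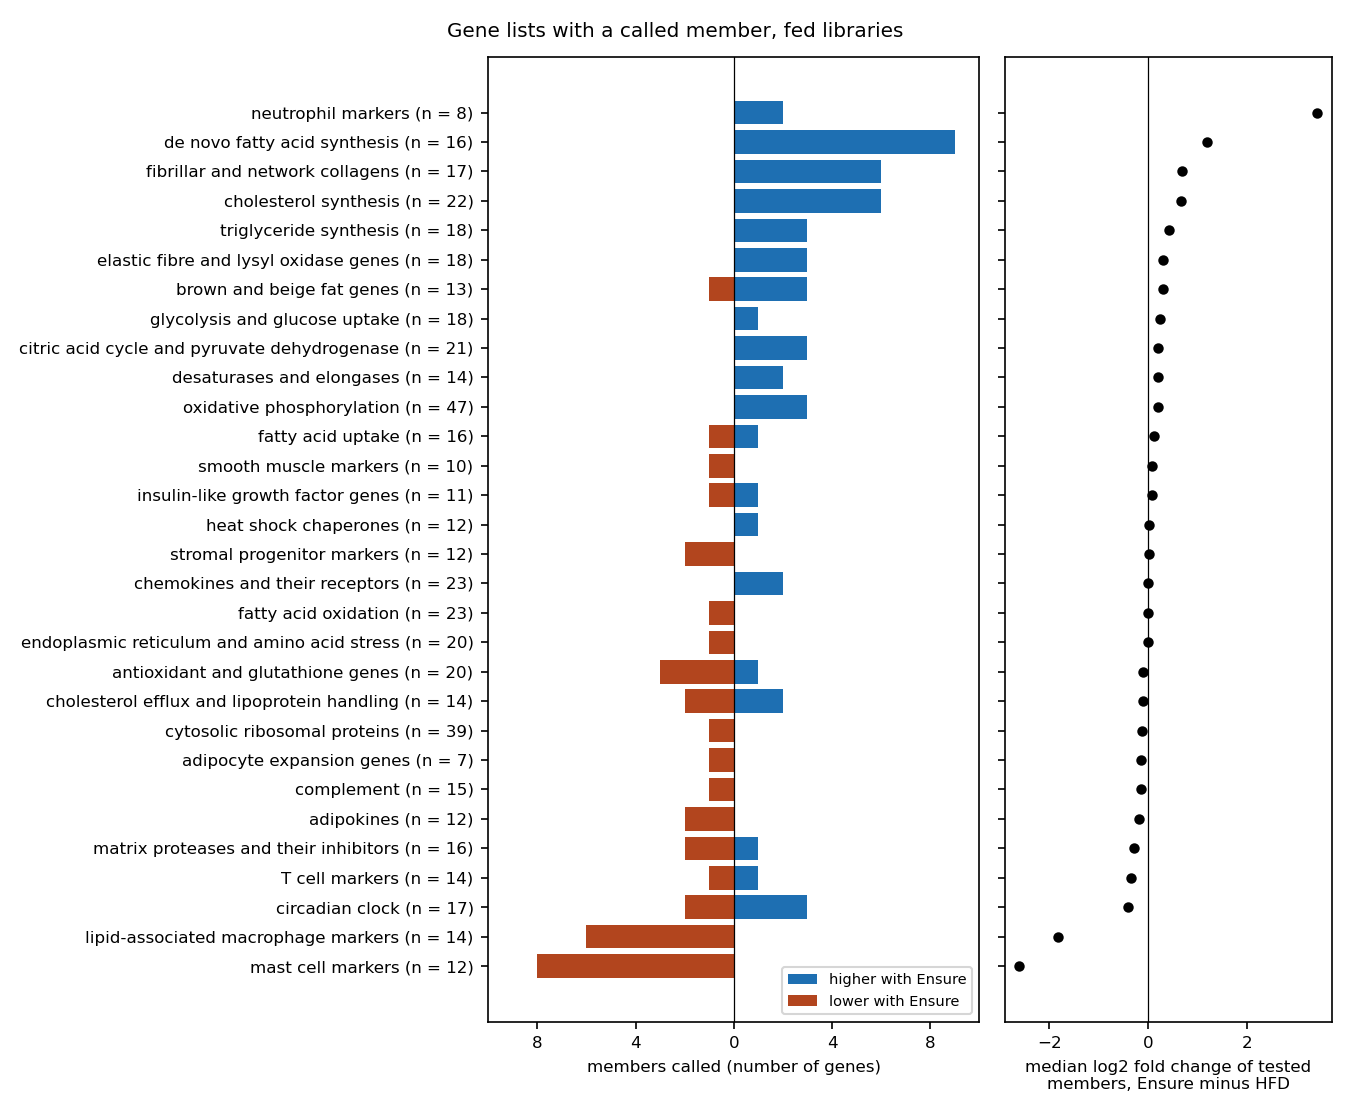
The 30 gene lists with at least 1 called gene, ordered by the median log2 fold change of their tested members (right panel; Ensure minus HFD, fed). Bars in the left panel count the members called higher (blue, to the right) and lower (red, to the left) at an adjusted p under 0.05; n is the number of members tested. De novo fatty acid synthesis has 9 members called higher of 16, and mast cell markers 8 called lower of 12.

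Diet and sequencing lane nearly coincide. By the lane in the labels' description, all 4 HFD libraries were run on lane 7, with Ensure 18; Ensure 1 was run on lane 5 and Ensure 9, 10, 12 and 16 on lane 6. Diet and lane therefore cannot be told apart for 9 of the 10 libraries, and the only comparison within a lane sets 1 Ensure library against 4. Within lane 7 all 682 called genes differed in the same direction as over all libraries, and 672 (98.5%) had a log2 fold change at least 0.5 times as large; 84.2% of all genes tested had the same sign in both. Ensure 18 is itself 1 of the 6 libraries that made the calls, and the 4 HFD libraries are the same, so the 2 values are not independent. The spread in that comparison is pooled over all libraries of the series, and Ensure 18, alone in its arm, is assumed to vary like the others. With lane as a term the fed difference also rests on Ensure 18 against the 4 HFD libraries, so it is not a separate check. Its log2 fold changes were the same, such as 1.99 for Acly and 3.07 for Elovl6. The lane 7 comparison called 4 genes (0.025%), and a fit with lane as a term 2 (0.0125%). Among the 4 were Serpina3b (3.40 on the log2 scale, adjusted p = 0.00712), Masp1 (2.76, adjusted p = 0.0367) and Acly (1.99, adjusted p = 0.0367).

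**Figure D2:**
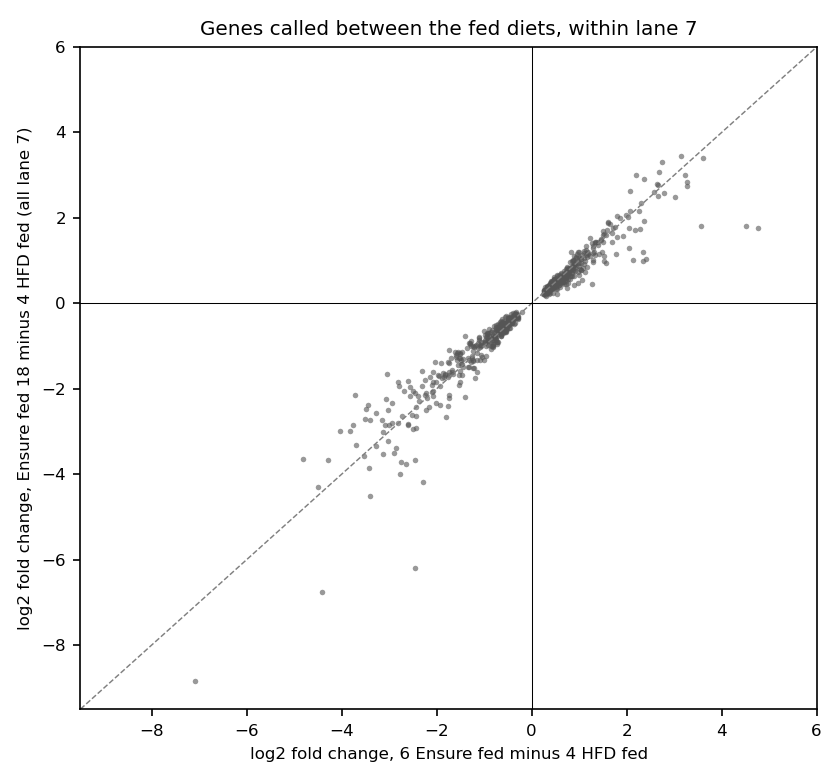
Log2 fold change of each of the 682 called genes over all fed libraries (x axis) and within lane 7, where Ensure 18 is set against the 4 HFD libraries (y axis); the dashed line marks equal values. All points lie to the lower left or upper right of 0, and 672 have a log2 fold change at least 0.5 times that of the x axis.

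Depth was close between the groups, at 17544770 to 22552633 counts in genes per fed library, so that 3 counts correspond to 0.133 to 0.171 CPM, the depth-scaled unit used throughout (a gene's count relative to the library's counts in genes, with TMM scaling). Reads that were not unique made up 20.73 to 21.82% in HFD and 22.35 to 23.48% in Ensure, and ambiguous reads 0.783 to 0.801% and 0.702 to 0.757%, with no overlap between diets in either measure; their part in the results was not tested. Adipocyte markers summed to 33300 to 47300 CPM in HFD and 41300 to 49400 CPM in Ensure, and 0 of their 10 genes were called by edgeR (2 at an unadjusted p under 0.05; DESeq2 called 1 and limma-voom 3). Tract epithelium genes, which mark tissue beside the fat pad, stood at a sum of 293 CPM each in HFD 21 and Ensure 16, against 1.94 to 61.8 CPM in the other fed libraries. Epididymis genes summed to 581 CPM in Ensure 10 and 208 CPM in Ensure 12, against 7.85 to 35.6 CPM in the other Ensure libraries and 9.94 to 27 CPM in HFD. All 8 had a positive log2 fold change with a median of 3.75, and edgeR called 0 (3 at an unadjusted p under 0.05; DESeq2 called 0 and limma-voom 0). Sperm cell genes summed to 77.1 CPM in Ensure 10. Of the 104 called genes described below or named by rule, 46 stayed called without 8 libraries rich in tract genes or in Cdh16. That fit left 3 HFD and 3 Ensure fed libraries and called 1.4% of the genes tested. The 5 tract-rich libraries left out in the other fit were Ensure 10 and 12, Ensure fasted 2 and 5, and HFD fasted 24. The 8 were these with HFD 21, Ensure 16 and HFD fasted 26, so HFD 21 and Ensure 16 stayed in the fit without 5. Ensure 1, with a tract epithelium sum of 61.8 CPM, stayed in both. The calls lost without the 8 are named beside the results, and the part of fewer libraries and of tract tissue in these losses was not tested.

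The enzymes that make fatty acids were higher with Ensure. Of 16 tested genes of de novo fatty acid synthesis, 9 rose, none fell, all 16 had a positive log2 fold change, and the median was 1.18. In 12 of the 16 the 2 diets did not overlap. The genes that did not pass were the NADPH enzymes G6pdx and Pgd, the transaldolase Taldo1, the lipogenic regulators Thrsp and Mid1ip1, the second acetyl-CoA carboxylase Acacb, and Mcat. Thrsp came closest, at 474 ± 191 CPM (SD, n = 4) in HFD and 1137 ± 290 CPM (SD, n = 6) in Ensure with an adjusted p of 0.051.

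Acly, the enzyme that cleaves citrate to cytosolic acetyl-CoA, read 301, 260.4, 454 and 252 CPM in HFD 21, 22, 25 and 27, and 919.8 to 1534 CPM (median 1134) in Ensure. Every Ensure library stood above every HFD library, with a gap wider than the whole HFD range. The log2 fold change was 1.86 ± 0.21 (SE; adjusted p = 3e-04), and 1.99 within lane 7. The citrate carrier Slc25a1, which supplies Acly, read 219, 199, 365 and 199 CPM in the same order and 525 to 650.2 CPM (median 589.9) in Ensure (log2 fold change 1.26 ± 0.24, adjusted p = 0.00686). Acss2 and Aacs, which activate acetate and acetoacetate, are other sources of acetyl-CoA. Acss2 read 109.8, 94.5, 217 and 88.2 CPM against 369 to 527 CPM (median 409) (log2 fold change 1.75 ± 0.33, adjusted p = 0.00638), and Aacs 83.4, 126, 114 and 119.7 CPM against 180.5 to 301 CPM (median 222) (log2 fold change 1.08 ± 0.18, adjusted p = 0.00374). In all 3 genes the diets did not overlap.

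Acaca, the acetyl-CoA carboxylase that commits carbon to fatty acids, read 80.7, 137, 119 and 107 CPM in HFD and 296 to 503 CPM (median 333) in Ensure (log2 fold change 1.68 ± 0.35, adjusted p = 0.0123). Fasn, fatty acid synthase, stood at 2221, 2466, 4199 and 1724 CPM in HFD and 7009.5 to 11293 CPM (median 9270.3) in Ensure. Its log2 fold change was 1.79 ± 0.35 (adjusted p = 0.00922), 1.55 within lane 7. HFD 25 had the highest Fasn of its group and lay between the other 3 HFD libraries and the lowest Ensure library. Me1, which makes NADPH from malate, read 236, 204, 406 and 219 CPM against 552 to 742 CPM (median 653) (log2 fold change 1.29 ± 0.32, adjusted p = 0.0316), again with HFD 25 apart from its group. Tkt, the transketolase of the pentose phosphate pathway, read 373, 406, 413 and 344 CPM against 656 to 1058 CPM (median 799.9) (log2 fold change 1.10 ± 0.23, adjusted p = 0.0127). Pnpla3, a lipase-like lipid droplet protein that follows lipogenic factors in mouse tissues, read 281, 472, 421 and 333 CPM against 959 to 1107 CPM (median 1028) (log2 fold change 1.45 ± 0.24, adjusted p = 0.00346) and the 6 Ensure libraries close together.

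HFD 25 was the highest HFD library in 6 of the 9 called genes of the list and HFD 22 in 3; Ensure 9 was the highest Ensure library in 6. Without the 8 tract-rich libraries all 9 stayed called, and 10 members of the list were called in all. Me1 lost its call without HFD 21, 22 or 27 or without Ensure 10 or 12, and the other 8 genes kept theirs when each of the 19 libraries was left out in turn.

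Palmitate is lengthened by Elovl6 and desaturated by the Scd enzymes. Elovl6 had the largest log2 fold change of the called genes in the lipid lists, at 35.5, 28.2, 50.5 and 24.2 CPM in HFD and 150.5 to 385 CPM (median 175) in Ensure. The lowest Ensure library held more than the 4 HFD libraries summed, and the log2 fold change was 2.68 ± 0.47 (adjusted p = 0.00464), 3.07 within lane 7. Scd2 read 690.5, 353, 1389 and 442 CPM and 1671 to 2211 CPM (median 1883) (log2 fold change 1.39 ± 0.36, adjusted p = 0.036); it lost its call without HFD 21, 22 or 27, without Ensure 1, 9, 10 or 12, and without the 8 tract-rich libraries. Scd1, the main desaturase of fat, did not follow. It read 25975, 55996, 29947 and 38333 CPM in HFD and 27762 to 38816 CPM (median 34949) in Ensure, with HFD 22 above and HFD 21 below all Ensure libraries (log2 fold change -0.12 ± 0.32, adjusted p = 0.917). Those 2 genes, Elovl6 and Scd2, were the only called members of 14 desaturases and elongases tested, whose median was 0.20; Fads1, Fads2 and Elovl5, which act on polyunsaturated chains, had log2 fold changes of -0.17, 0.11 and 0.29.

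**Figure D3:**
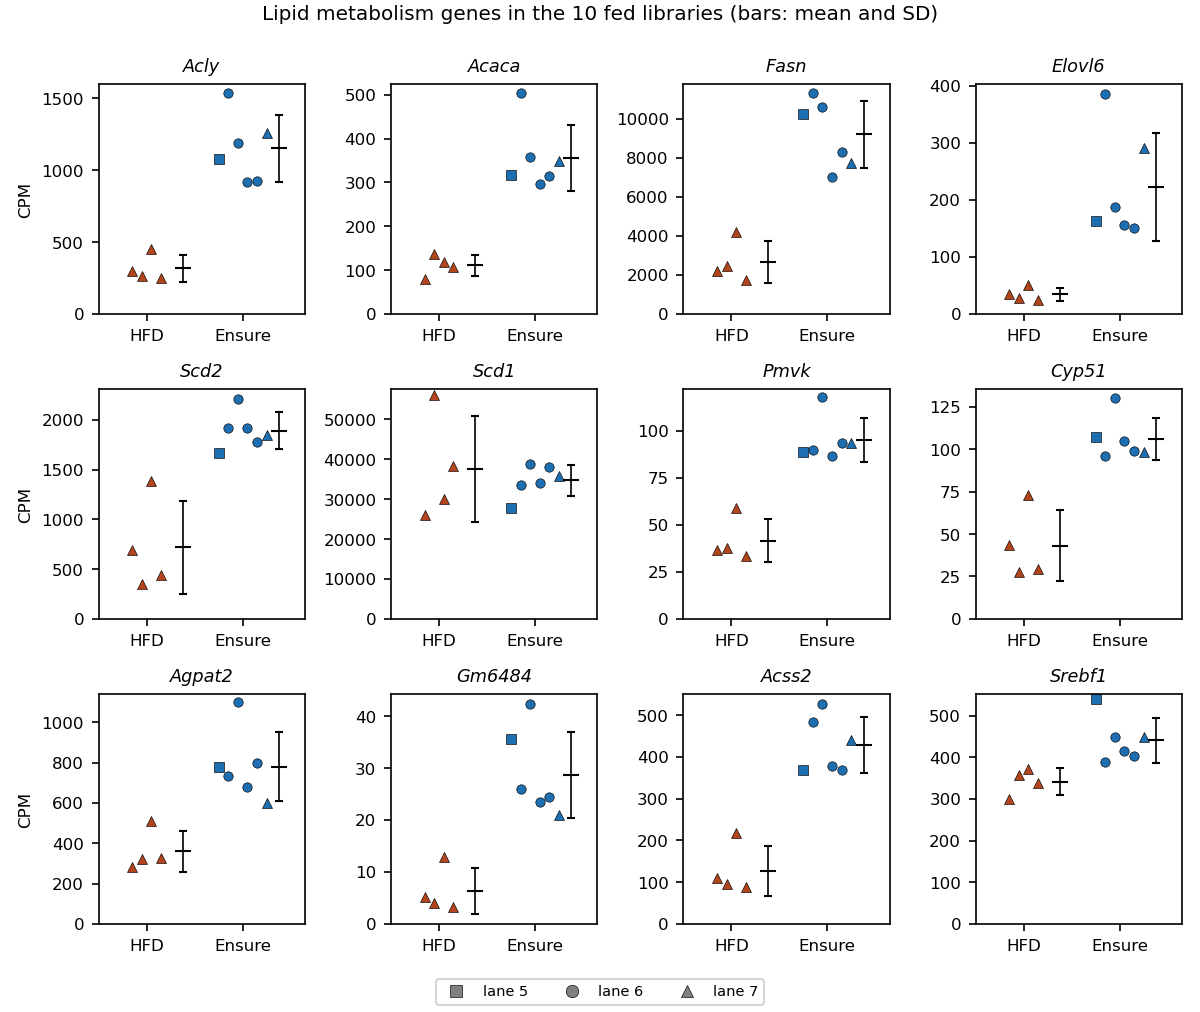
TMM-scaled CPM of 12 lipid metabolism genes in each fed library; red points are HFD (n = 4), blue points Ensure (n = 6), the point shape gives the sequencing lane, and bars show mean and SD. Axes start at 0. Acly, Acaca, Fasn, Elovl6, Scd2, Pmvk, Cyp51, Agpat2, Gm6484, Acss2 and Srebf1 are higher in every Ensure library than in every HFD library; Scd1 overlaps.

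The factors that drive these enzymes showed small differences in their own mRNA. By edgeR 0 of 13 lipogenic transcription factors and sterol sensors were called (7 at an unadjusted p under 0.05; DESeq2 called 2 higher and 1 lower, limma-voom 6 higher and 2 lower). Srebf1, which encodes SREBP-1, read 299, 358, 371 and 338 CPM in HFD and 389.5 to 539.7 CPM (median 431) in Ensure. The diets did not overlap, and the log2 fold change was 0.37 ± 0.14 (adjusted p = 0.157). Mlxipl, which encodes ChREBP, read 68.4, 88.2, 87.0 and 82.9 CPM and 86.4 to 123 CPM (median 106) (log2 fold change 0.37 ± 0.15, adjusted p = 0.194). Insig1, a sterol sensor and SREBP target, stood at 205 ± 99 CPM (SD, n = 4) and 356 ± 41.8 CPM (SD, n = 6), with an adjusted p of 0.087. Counts per gene do not separate the isoforms of SREBP-1 or of ChREBP.

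Cholesterol synthesis moved the same way by a smaller amount. Of 22 tested genes 6 rose and none fell, 20 had a positive log2 fold change, and the median was 0.66. The called genes act at several steps: Mvk, Pmvk and Mvd phosphorylate and decarboxylate mevalonate, Lss closes the ring to lanosterol, and Cyp51 and Nsdhl trim it. Sqle, the squalene epoxidase, had a log2 fold change of 1.06 with an adjusted p of 0.066.

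A CCAAT box is common before the start of the listed cholesterol genes, not only of the called ones. The stretch before the start of 4 called genes is shown, and the part of this feature in the calls was not tested. The sequences are the 250 bases before the gene start, from RefSeq on GRCm38.p6, in the direction of transcription, with the CCAAT box (CCAAT, or ATTGG where it lies on the other strand) in capitals. Nsdhl lies at chrX:72918271-72918520 (plus strand), Mvd at chr8:122443423-122443672 (minus strand), Cyp51 at chr5:4104698-4104947 (minus strand) and Pmvk at chr3:89454291-89454540 (plus strand).
Nsdhl: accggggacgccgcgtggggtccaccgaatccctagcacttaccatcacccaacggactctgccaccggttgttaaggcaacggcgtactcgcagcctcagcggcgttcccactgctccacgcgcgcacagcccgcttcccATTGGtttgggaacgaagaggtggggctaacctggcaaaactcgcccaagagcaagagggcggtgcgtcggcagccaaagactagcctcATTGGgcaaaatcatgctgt
Mvd: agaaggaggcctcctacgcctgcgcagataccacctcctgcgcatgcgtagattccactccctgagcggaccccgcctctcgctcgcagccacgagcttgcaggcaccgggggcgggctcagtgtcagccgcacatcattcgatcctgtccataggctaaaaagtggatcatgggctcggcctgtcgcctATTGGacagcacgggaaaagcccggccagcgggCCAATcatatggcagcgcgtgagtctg
Cyp51: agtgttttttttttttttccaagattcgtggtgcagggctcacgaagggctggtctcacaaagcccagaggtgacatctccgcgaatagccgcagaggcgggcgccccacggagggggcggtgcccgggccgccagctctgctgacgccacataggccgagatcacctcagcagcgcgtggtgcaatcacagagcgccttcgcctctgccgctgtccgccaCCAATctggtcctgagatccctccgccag
Pmvk: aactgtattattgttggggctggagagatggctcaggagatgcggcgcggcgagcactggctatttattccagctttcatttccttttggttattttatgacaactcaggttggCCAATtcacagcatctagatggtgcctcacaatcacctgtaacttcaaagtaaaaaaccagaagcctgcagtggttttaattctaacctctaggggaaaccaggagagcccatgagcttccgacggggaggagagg

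At least 1 CCAAT box on either strand lay in that window in all 6 called genes and in 12 of the 14 listed cholesterol genes that have a window (85.7%), against 35.6% of 11990 windows of tested genes. Mvk held 5 boxes, Nsdhl and Mvd 2 each, and Pmvk, Cyp51 and Lss 1 each. CCAAT is the letter core bound by NF-Y, a factor known to act beside SREBP at cholesterol genes. A GC box (GGGCGG, either strand) was also more frequent in the list, at 92.9% of the 14 against 55.3% of all windows. The letters TCACNCCAC, a core of the sterol regulatory element, lay in 0 of the 14 windows and in 0.984% of all, and the E-box CACGTG, which reads the same on both strands, in 14.3% and 7.98%. Among the fatty acid synthesis genes 8 of 15 windows (53.3%) held a CCAAT box, with 3 in Fasn, 2 of which overlap. The files' build is mm9, so that these positions are not those of the counted gene models, and a match of letters is a description and not a binding site.

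Pmvk, phosphomevalonate kinase, read 36.5, 37.6, 58.9 and 33.5 CPM in HFD and 86.5 to 118 CPM (median 91.7) in Ensure (log2 fold change 1.19 ± 0.18, adjusted p = 0.00184). Cyp51, the lanosterol demethylase, read 43.3, 27.7, 72.7 and 29.2 CPM and 96.3 to 130.1 CPM (median 102) (log2 fold change 1.29 ± 0.25, adjusted p = 0.00883). Nsdhl read 60.0, 38.5, 94.4 and 38.3 CPM and 100.4 to 149 CPM (median 114) (log2 fold change 1.04 ± 0.21, adjusted p = 0.00978). In these 3 genes the diets did not overlap, and within lane 7 the log2 fold changes were 1.17, 1.18 and 0.93. HFD 25 was the highest HFD library in all 6 called genes, and in Lss and Mvk it overlapped the Ensure range, at 87.4 CPM against 78.3 to 115 CPM (median 89.1) and at 43.9 CPM against 37.3 to 55.2 CPM (median 42.7). Ensure 10 was the highest Ensure library in 5 of the 6. Without HFD 21, 22 or 27, or without Ensure 1 or 10, 3 genes of the list were called in each case, without Ensure 12 there were 4, without HFD 25 there were 10, and without Ensure fasted 5, which enters through the shared spread, there were 11. Without the 8 tract-rich libraries only Pmvk was called (adjusted p = 0.0232).

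Genes that move cholesterol out of cells split. Of 14 tested, 2 rose and 2 fell, and the median was -0.11. The apolipoprotein gene Apoc1 read 34.8, 56.6, 50.7 and 43.6 CPM in HFD and 70.2 to 107 CPM (median 86.6) in Ensure (log2 fold change 0.88 ± 0.16, adjusted p = 0.00565). Scarb1, the receptor that exchanges cholesterol with high density lipoprotein, overlapped between diets and differed by 0.43 ± 0.12 on the log2 scale (adjusted p = 0.0458). Nceh1 and Soat1, which split and form cholesteryl esters in macrophages, were lower, by -2.07 ± 0.46 (adjusted p = 0.0186) and -1.51 ± 0.39 (adjusted p = 0.036) on the log2 scale. Nceh1 read 101, 39.4, 108 and 90.8 CPM in HFD and 15.1 to 27.9 CPM (median 19.4) in Ensure, with HFD 22 lowest of its group. Scarb1 and Soat1 each lost the call without 1 of several libraries (7 and 8 of the 19), and Nceh1 without HFD 21 or 27. Apoc1 stayed called without the 8 tract-rich libraries and the other 3 did not.

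Triglyceride assembly followed in part, and breakdown did not. Of 18 triglyceride synthesis genes 3 rose and none fell, with a median of 0.43. Agpat2, the acyltransferase whose loss causes lipodystrophy, read 280.4, 320.0, 511 and 327 CPM in HFD and 600.2 to 1098 CPM (median 754) in Ensure (log2 fold change 1.12 ± 0.23, adjusted p = 0.0123; 0.74 within lane 7). Gpam, which acylates glycerol 3-phosphate, read 108, 177, 164 and 149 CPM and 242 to 347 CPM (median 308) (log2 fold change 1.00 ± 0.27, adjusted p = 0.0401), and Lpin3 differed by 0.47 ± 0.13 (adjusted p = 0.0412). These calls were near the threshold: Agpat2 lost its call without HFD 22, Gpam without any of 10 libraries and Lpin3 without any of 7, and without the 8 tract-rich libraries none of the list was called. By edgeR 0 of 17 lipolysis genes were called (2 at an unadjusted p under 0.05; DESeq2 0, limma-voom 7), and 0 of 12 lipid droplet proteins (1 unadjusted; DESeq2 1, limma-voom 3).

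Gm6484, which RefSeq lists as a former name of Angptl8, an insulin-induced inhibitor of lipoprotein lipase, was picked out after its values were seen. It read 5.26, 3.94, 12.8 and 3.30 CPM in HFD and 20.9 to 42.2 CPM (median 25.1) in Ensure (log2 fold change 2.18 ± 0.41, adjusted p = 0.00638). Every Ensure library stood above HFD 25, the highest of its group. Of 16 fatty acid uptake genes 1 rose and 1 fell. Slc27a4, a fatty acid transport protein, read 44.0, 42.9, 52.1 and 39.4 CPM and 71.7 to 93.2 CPM (median 73.8) (log2 fold change 0.79 ± 0.16, adjusted p = 0.00992), and Acsl5, an acyl-CoA synthetase, 103, 98.0, 129.6 and 108 CPM and 68.4 to 85.2 CPM (median 82.9) (log2 fold change -0.47 ± 0.10, adjusted p = 0.0151). Both lost the call without HFD 27. Without the 8 tract-rich libraries Slc27a4 stayed called, and Gm6484 (adjusted p = 0.0638) and Acsl5 (adjusted p = 0.138) did not.

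Mitochondrial genes shifted by small amounts. Of 47 subunits of the respiratory chain and ATP synthase edgeR called 3 higher (6.38%, near the 4.26% called over all genes). DESeq2, with 9.68% of all genes called, called 12 of them higher and 0 lower. For limma-voom, with 34% of all genes called, the numbers were 28 and 0. A positive log2 fold change was seen in 46, and the median was 0.19, against -0.04 over all genes. Atp5g3, a subunit of the membrane ring of ATP synthase, read 239, 269, 284 and 246 CPM in HFD and 334 to 394 CPM (median 353) in Ensure (log2 fold change 0.46 ± 0.09, adjusted p = 0.00883). Uqcrfs1 and Cyc1 of complex III differed by 0.37 ± 0.09 (adjusted p = 0.0243) and 0.34 ± 0.08 (adjusted p = 0.0301). Of 21 citric acid cycle and pyruvate dehydrogenase genes 3 were called higher (14.3%) and none lower. Their log2 fold changes ran from -0.42 to 0.77, 17 of them positive, and limma-voom called 9 higher and 4 lower. Pdhb, of the enzyme that feeds pyruvate into the cycle, read 66.9, 80.5, 76.2 and 72.3 CPM and 119.5 to 146 CPM (median 121) (log2 fold change 0.77 ± 0.14, adjusted p = 0.00638). Dlat, of the same complex, rose by 0.63 ± 0.15 (adjusted p = 0.026), and Cs, citrate synthase, by 0.47 ± 0.11 (adjusted p = 0.0261). Dlat and Cs lost the call without HFD 21, 22 or 27, Dlat also without Ensure 10 or 12, and Cyc1 without HFD 25 or Ensure 1. Without the 8 tract-rich libraries Pdhb was the only one of these 6 genes still called, and the adjusted p of the others ran from 0.104 for Atp5g3 to 0.165 for Cyc1.

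Upstream of these steps little passed by edgeR. For glycolysis and glucose uptake, DESeq2 called 4 genes higher, and limma-voom 9 higher and 1 lower. Of 18 glycolysis and glucose uptake genes 1 was called, the phosphofructokinase gene Pfkl (115, 104, 134 and 85.9 CPM against 162 to 199 CPM (median 186); log2 fold change 0.74 ± 0.20, adjusted p = 0.0439), which lost the call without any of 10 libraries and without the 8 tract-rich ones. Slc2a4, the insulin-responsive glucose transporter GLUT4, differed by 0.000451 on the log2 scale (adjusted p = 0.999). By edgeR 0 of 16 insulin signalling genes (1 unadjusted; DESeq2 1, limma-voom 2) and 0 of 20 genes for the breakdown of branched-chain amino acids (2 unadjusted; DESeq2 0, limma-voom 3) were called.

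Of 12 genes listed as adipokines, the proteins that adipocytes secrete, 2 were lower and none higher. Nnat, which encodes neuronatin, is abundant in fat but encodes a membrane protein of the endoplasmic reticulum and not a secreted one; it read 859, 1921, 498 and 1458 CPM in HFD and 236 to 373 CPM (median 303) in Ensure (log2 fold change -1.96 ± 0.31, adjusted p = 0.00261). Sfrp5, a secreted inhibitor of Wnt signalling, read 387, 490.1, 339 and 527 CPM and 98.3 to 180.0 CPM (median 158) (log2 fold change -1.51 ± 0.27, adjusted p = 0.00552). Neither gene overlapped between diets, and neither was called without the 8 tract-rich libraries (adjusted p = 0.057 and 0.0657). Lep, the satiety hormone leptin, read 3835, 2478, 6579 and 2652 CPM and 4041 to 7272 CPM (median 5826) with overlap (log2 fold change 0.58 ± 0.34, adjusted p = 0.395). Adipoq, adiponectin, read 2369, 4138, 2359 and 3645 CPM and 1700.1 to 2395 CPM (median 2084), likewise overlapping (log2 fold change -0.58 ± 0.25, adjusted p = 0.204). Mest, which marks adipocyte expansion, differed by -0.14 ± 0.33 on the log2 scale (adjusted p = 0.895), and by edgeR 0 of 16 adipogenic factors were called (2 unadjusted; DESeq2 0, limma-voom 6).

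Genes of thermogenic fat split. Of 13 tested, Cox8b, Dio2 and Cox7a1 rose and Prdm16 fell. Dio2, which activates thyroid hormone, read 1.86, 0.998, 3.60 and 0.744 CPM in HFD and 10.1 to 17.2 CPM (median 15.6) in Ensure (log2 fold change 3.02 ± 0.80, adjusted p = 0.0412). Cox8b, a muscle and brown fat subunit of cytochrome oxidase, read 5.30, 4.94, 7.66 and 6.65 CPM and 12.0 to 23.5 CPM (median 15.2) (log2 fold change 1.40 ± 0.33, adjusted p = 0.0245). Skeletal muscle markers summed to 15.2 to 21.5 CPM in HFD and 20.8 to 45.9 CPM in Ensure, and the part of stray muscle in Cox8b and Cox7a1 was not tested. Cox7a1 differed by 0.67 ± 0.18 (adjusted p = 0.0425). Prdm16, a brown fat factor, read 18.3, 13.6, 17.5 and 16.3 CPM and 8.26 to 12.3 CPM (median 11.3) (log2 fold change -0.59 ± 0.15, adjusted p = 0.0327). Each of the 4 calls was lost without HFD 21, without HFD 27 and without some others, in all 8 of the 19 libraries for Dio2, 4 for Cox8b, 7 for Cox7a1 and 11 for Prdm16. Cox8b stayed called without the 8 tract-rich libraries and the other 3 did not (adjusted p = 0.0712 for Dio2).

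Growth factor, clock and detoxification genes gave calls in both directions. The share called was 18.2% of 11 insulin-like growth factor genes, 29.4% of 17 clock genes and 20% of 20 antioxidant genes, against 4.26% of all genes. Igf1, the growth factor, read 271, 283, 360.4 and 308 CPM and 401 to 577 CPM (median 519) (log2 fold change 0.73 ± 0.20, adjusted p = 0.0449), and Igf2r, which clears its relative Igf2, 251, 208, 270.4 and 254 CPM and 135 to 176 CPM (median 151) (log2 fold change -0.70 ± 0.17, adjusted p = 0.0282). Each lost the call without 7 of the 19 libraries, and without the 8 tract-rich ones. Of 17 circadian clock genes 3 rose and 2 fell: the activators Arntl (0.76 ± 0.15, adjusted p = 0.00904) and Clock (0.41 ± 0.08, adjusted p = 0.00878) and the repressor Nfil3 (1.29 ± 0.27, adjusted p = 0.0119) were higher on the log2 scale, and Tef (-0.65 ± 0.12, adjusted p = 0.00801) and Per3 (-0.76 ± 0.18, adjusted p = 0.0227) lower. The output factor Dbp had a log2 fold change of -0.73 with an adjusted p of 0.13. The hour of sampling is not given in the sources used here. Of 20 antioxidant genes the glutathione transferases Gstt1 (-1.15 ± 0.19, adjusted p = 0.0028) and Gstm1 (-0.84 ± 0.15, adjusted p = 0.00505) and the peroxidase Gpx1 (-0.80 ± 0.19, adjusted p = 0.0251) fell and Gsta3 (1.04 ± 0.19, adjusted p = 0.00559) rose. Clock, Arntl, Gstt1, Gstm1 and Gsta3 kept their calls when each library was left out in turn, whereas Tef lost its call without HFD 27, Nfil3 without HFD 22 or 27, Per3 without HFD 22 or 27 or Ensure 1, 9 or 18, and Gpx1 without HFD 22 or 27 or Ensure 1 or 12. Without the 8 tract-rich libraries Arntl, Tef, Per3 and Gstt1 stayed called, and Clock (adjusted p = 0.147), Nfil3 (0.0577), Gstm1 (0.0931), Gsta3 (0.0973) and Gpx1 (0.0631) did not.

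Lipid-associated macrophage genes were lower with Ensure. Of 14 tested 6 fell and none rose, all 14 had a negative log2 fold change, the median was -1.82, and 11 did not overlap between diets. In bulk tissue fewer cells of a type and less RNA per cell cannot be told apart. Gpnmb, a glycoprotein of lipid-loaded macrophages, read 1176, 312, 926 and 874 CPM in HFD and 18.8 to 91.3 CPM (median 27.3) in Ensure. HFD 22 was the lowest of its group in all 6 called genes and still stood above the highest Ensure library. The log2 fold change was -4.29 ± 0.87 (adjusted p = 0.0101), -3.66 within lane 7.

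Itgax, which encodes CD11c, read 185, 72.6, 177 and 154 CPM in HFD and 16.0 to 32.6 CPM (median 25.7) in Ensure (log2 fold change -2.56 ± 0.53, adjusted p = 0.0123). Mmp12, the macrophage elastase, read 866, 299.9, 583 and 650.1 CPM and 21.6 to 75.6 CPM (median 35.9) (log2 fold change -3.82 ± 0.91, adjusted p = 0.0243). Trem2, the lipid receptor that defines these cells, read 119, 41.3, 120.2 and 109 CPM and 6.31 to 20.5 CPM (median 11.3) (log2 fold change -3.07 ± 0.79, adjusted p = 0.0364). In each of them Ensure 18, the Ensure library of lane 7, was the highest of its group and stayed below every HFD library. Atp6v0d2, a proton pump subunit of fused macrophages and osteoclasts, fell by 3.77 ± 0.87 (adjusted p = 0.0214) and Dcstamp, which drives such fusion, by 2.04 ± 0.55 (adjusted p = 0.0439) on the log2 scale. Members that did not pass included Lgals3 at -1.69, Ctss at -1.49, Cd9 at -1.32 and Spp1 at -1.94 on the log2 scale.

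The summed level of the list was 1590 to 4430 CPM in HFD and 558 to 887 CPM in Ensure. Of 15 general macrophage markers edgeR called 0 (4 unadjusted; DESeq2 1, limma-voom 4), 8 had a positive log2 fold change and the median was 0.14. Their sum was 2260 to 3990 CPM in HFD and 2000 to 3770 CPM in Ensure; HFD 22 was lowest of its group in this sum too, and the other HFD libraries, at 3420 CPM or more, stood above all Ensure libraries except Ensure 9. The members differed in direction. Mpeg1, a pore-forming protein of macrophages, and Cd68, of their lysosomes, had log2 fold changes of -1.60 (adjusted p = 0.066) and -1.51 (adjusted p = 0.16) with no overlap between diets, and Mertk (-0.29) and Aif1 (0.83) did not overlap either. Timd4, Lyve1 and Mrc1, which mark resident macrophages, had log2 fold changes of 1.32, 0.82 and 0.27, and the pan-macrophage receptor Csf1r -0.06. By edgeR 0 of 19 lysosome genes were called (4 unadjusted; DESeq2 2, limma-voom 8). The stress factor Atf3, of the endoplasmic reticulum list, was lower at 80.7, 25.7, 84.8 and 71.1 CPM against 8.11 to 15.8 CPM (median 9.48) (log2 fold change -2.69 ± 0.69, adjusted p = 0.0367), with HFD 22 lowest of its group. The number of called lipid-associated genes fell to 2 without HFD 21, HFD 27 or Ensure 1, to 3 without Ensure 9 or 12, to 4 without HFD 22, HFD 25, Ensure 10 or Ensure 16, and to 3 without the 8 tract-rich libraries, where Gpnmb, Itgax and Mmp12 stayed called and Trem2, Atp6v0d2 and Dcstamp, and Atf3 beside them, did not; Gpnmb and Itgax were called with any 1 library left out.

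Mast cell genes were lower with Ensure. Of 12 tested 8 fell and none rose, with a median of -2.60, and all 8 had no overlap between diets. The chymases Mcpt4 and Cma1 are granule proteases of connective tissue mast cells. Mcpt4 read 43.7, 14.6, 17.0 and 44.5 CPM in HFD and 2.00 to 4.52 CPM (median 3.59) in Ensure (log2 fold change -3.15 ± 0.53, adjusted p = 0.00374), and Cma1 45.7, 14.3, 16.3 and 47.0 CPM and 3.46 to 5.64 CPM (median 4.82) (log2 fold change -2.73 ± 0.55, adjusted p = 0.00997). HFD 21 and 27 stood about alike and above HFD 22 and 25, which in turn stood above all Ensure libraries. The carboxypeptidase Cpa3 had the same order, at 44.8, 16.0, 18.7 and 47.4 CPM and 4.62 to 7.35 CPM (median 5.61) (log2 fold change -2.46 ± 0.49, adjusted p = 0.00922).

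The tryptase Tpsb2 read 57.7, 19.7, 19.1 and 50.8 CPM and 2.41 to 5.22 CPM (median 5.05) (log2 fold change -2.99 ± 0.52, adjusted p = 0.00432); it has a close copy, Tpsab1, with which it can share reads. Mrgprb1 read 13.7, 3.47, 4.21 and 13.2 CPM and 0.667 to 1.41 CPM (median 1.13) (log2 fold change -2.94 ± 0.55, adjusted p = 0.00637). Mrgprb2, the mast cell receptor for basic secretagogues, was among the genes with the widest differences, at 4.64, 1.52, 1.57 and 4.37 CPM and 0.0587 to 0.462 CPM (median 0.272) (log2 fold change -3.53 ± 0.72, adjusted p = 0.0109). The receptor chains Fcer1a and Ms4a2, which bind IgE, fell by 2.38 ± 0.62 and 3.02 ± 0.62 on the log2 scale (adjusted p = 0.0372 and 0.0112). Tph1, which makes serotonin and is also found in mast cells, read 4.77, 1.10, 0.660 and 3.67 CPM and 0.0513 to 0.296 CPM (median 0.221) (log2 fold change -3.70 ± 1.01, adjusted p = 0.0449); it lost the call without any of 10 libraries. Tph1, Mrgprb2, Ms4a2 and Tpsab1 lie near 3 counts in Ensure, where the size of a fold is uncertain.

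The 4 mast cell genes that did not pass were Kit (log2 fold change -0.21), Gata2 (-0.47), Hdc (-0.28) and Cyp11a1, all of them negative. Kit, Gata2 and Hdc are also used by other cells of blood or tissue, and the part of such cells was not tested. The sum of the list was 119 to 306 CPM in HFD and 51.8 to 86.7 CPM in Ensure. In all, 6 to 8 members were called when each library was left out, the lowest number without HFD 21, 22 or 27 or Ensure 1, 9 or 16, and 6 without the 8 tract-rich libraries, where Fcer1a and Tpsab1, and Tph1 beside the list, lost the call. Within lane 7 the log2 fold changes were -2.73 for Mcpt4, -2.63 for Cma1, -2.11 for Cpa3 and -2.85 for Tpsb2.

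**Figure D4:**
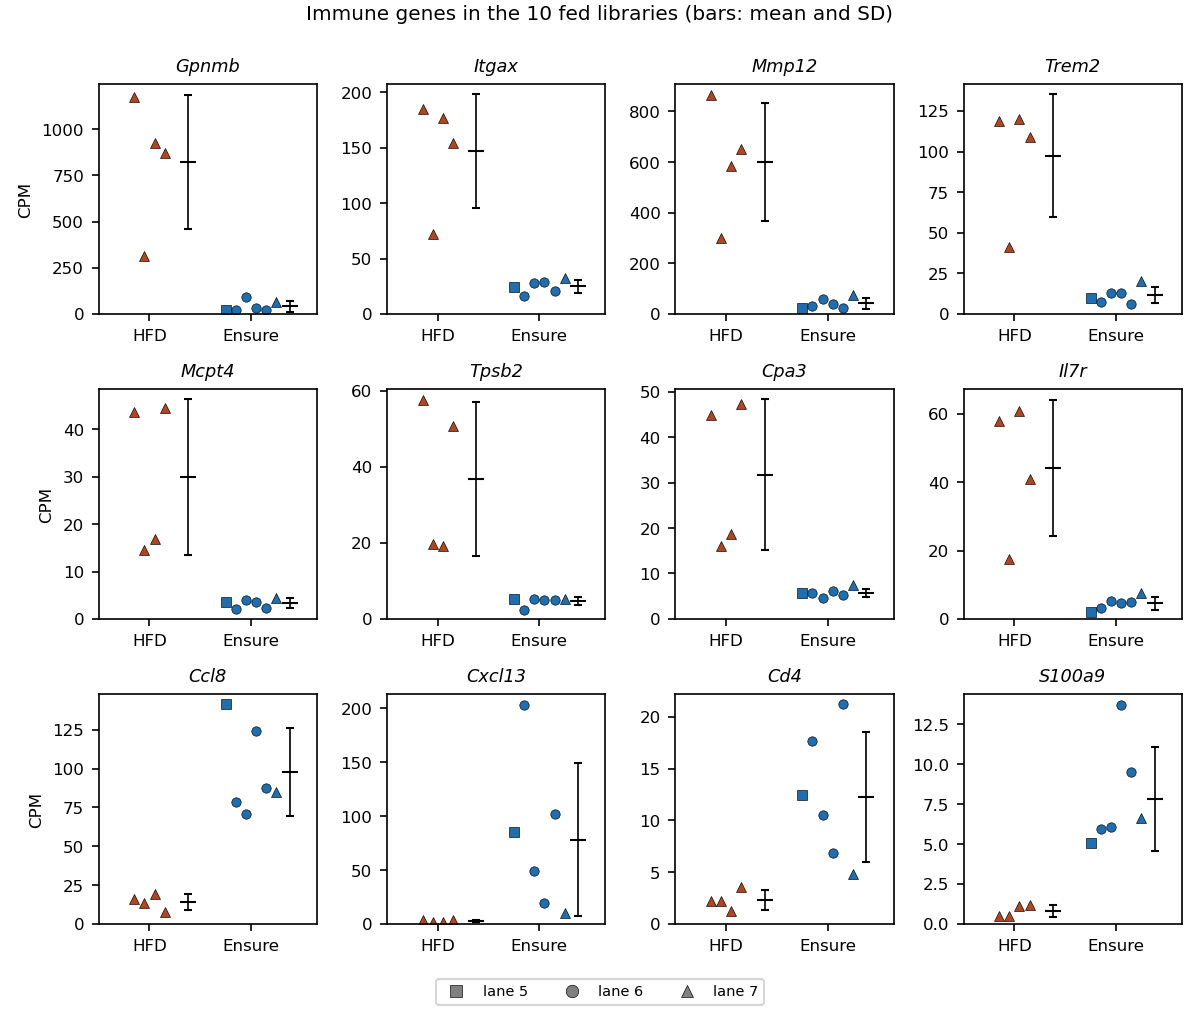
TMM-scaled CPM of 12 immune genes in each fed library; red points are HFD (n = 4), blue points Ensure (n = 6), the point shape gives the sequencing lane, and bars show mean and SD. Axes start at 0. The genes of lipid-associated macrophages (top row), mast cell genes and Il7r (middle row) are lower and Ccl8, Cxcl13, Cd4 and S100a9 (bottom row) higher in every Ensure library than in every HFD library.

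Of 23 chemokines and receptors 2 were higher with Ensure. Cxcl13, the chemokine that draws B cells, read 3.40, 2.15, 2.03 and 3.77 CPM in HFD and 9.69 to 203 CPM (median 67.4) in Ensure (log2 fold change 4.77 ± 0.90, adjusted p = 0.00665). Ensure 18, of lane 7, was the lowest of its group, and the log2 fold change within that lane was 1.76. By limma-voom Cxcl13 did not pass (adjusted p = 0.0523). Ccl8, a chemokine of resident macrophages, read 16.2, 13.3, 19.4 and 7.76 CPM and 70.4 to 141 CPM (median 86.1) (log2 fold change 2.79 ± 0.39, adjusted p = 0.00109; 2.58 within lane 7). No other gene of that list was called, and its median was -0.00285. Cd209e, a lectin of the DC-SIGN family, read 0.290, 0.525, 0.305 and 0.465 CPM and 1.33 to 4.58 CPM (median 2.24) (log2 fold change 2.64 ± 0.63, adjusted p = 0.0259), and lost the call without any 1 HFD library or without Ensure 1 or 12, and without the 8 tract-rich libraries.

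Among T cell markers Cd4 rose and Il7r fell, of 14 tested. Cd4 read 2.20, 2.26, 1.22 and 3.58 CPM and 4.77 to 21.2 CPM (median 11.5) (log2 fold change 2.40 ± 0.44, adjusted p = 0.00627), but 1.04 within lane 7, where Ensure 18 is the lowest of its group. Il7r, the receptor for interleukin 7, read 57.8, 17.4, 60.9 and 41.0 CPM and 2.00 to 7.50 CPM (median 4.70) (log2 fold change -3.28 ± 0.74, adjusted p = 0.0195), with HFD 22 lowest of its group as for the lipid-associated macrophage genes; it lost the call without HFD 21 or 27. Neither gene was called without the 8 tract-rich libraries (adjusted p = 0.0596 for Cd4 and 0.0631 for Il7r). The 14 T cell markers summed to 49.1 to 84 CPM in HFD and 26 to 55.9 CPM in Ensure, and without Il7r to 23.1 to 36.8 CPM and 18.5 to 51.1 CPM; 12 of the 14 had a negative log2 fold change, with a median of -0.36. Cd4 is also made by some macrophages and Il7r by lymphoid cells other than T cells.

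Neutrophil genes were low in all fed libraries, with a sum of 14.3 to 43.1 CPM in HFD and 46.4 to 126 CPM in Ensure. Ensure 10 and 12, which had the highest epididymis sums, held 126 and 66 CPM. Ensure 16 and HFD 21, both rich in tract epithelium genes, held 51.7 and 19.2 CPM. Ensure 9 and 18, with the lowest tract epithelium sums of the fed libraries, held 48.6 and 46.4 CPM. The part of tract tissue in these sums was not tested. S100a9, a calcium-binding protein of neutrophils, read 0.497, 0.525, 1.12 and 1.16 CPM in HFD and 5.05 to 13.7 CPM (median 6.33) in Ensure (log2 fold change 3.24 ± 0.81, adjusted p = 0.0321), and the chemokine receptor Cxcr2 0.124, 0.158, 0.0508 and 0.232 CPM and 0.569 to 2.96 CPM (median 1.16) (log2 fold change 3.27 ± 0.72, adjusted p = 0.0166). They were the 2 called of 8 neutrophil markers, all 8 of which had a positive log2 fold change. Several members stand at or near 0 counts in HFD, so that the median of the list, 3.41, is uncertain in size. S100a9 lost the call without HFD 21, 22 or 27 or Ensure 10 or 12, and Cxcr2 without HFD 21 or 22. Fpr1, the receptor for formylated peptides, read 0.207, 0.0525, 0.203 and 0.139 CPM and 0.547 to 15.5 CPM (median 0.968), with 1 library, Ensure 9, far above the others (log2 fold change 4.51 ± 1.03, adjusted p = 0.02; 2.99 at the lowest with 1 library left out). Ensure 9 was likewise the highest for Irg1, the itaconate enzyme also named Acod1, at 0.166, 0.315, 0.102 and 0.372 CPM and 0.845 to 9.29 CPM (median 1.98) (log2 fold change 3.57 ± 0.93, adjusted p = 0.0385). The calls of Fpr1 and Irg1 were lost without HFD 21, 22 or 27, and that of Irg1 also without HFD 25 or Ensure 1, 9 or 12. S100a9 and Cxcr2 stayed called without the 8 tract-rich libraries and Fpr1 and Irg1 did not.

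All 24 interferon-responsive genes had a positive log2 fold change, with a median of 0.51, and edgeR called 0 of them (8 unadjusted; DESeq2 2, limma-voom 4). By edgeR 0 of 12 B cell markers (4 unadjusted; DESeq2 2, limma-voom 5), 0 of 10 class II genes (1 unadjusted; DESeq2 0, limma-voom 1), 0 of 15 cytokines and mediators (2 unadjusted; DESeq2 0, limma-voom 6), 0 of 18 immediate-early genes (9 unadjusted; DESeq2 2, limma-voom 9) and 0 of 24 cell cycle genes (3 unadjusted; DESeq2 1, limma-voom 10) were called. Of 15 complement genes the inhibitor Serping1 was lower, at 681, 561, 654 and 736 CPM and 365 to 514 CPM (median 402) (log2 fold change -0.65 ± 0.16, adjusted p = 0.0318; lost without 7 of the 19 libraries and without the 8 tract-rich ones). Masp1, a protease of the lectin pathway, was not on that list and was higher at 0.912, 1.31, 1.73 and 1.02 CPM and 6.62 to 8.99 CPM (median 8.02) (log2 fold change 2.66 ± 0.31, adjusted p = 3e-04).

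The matrix was higher in collagens and elastin. Of 17 collagen genes 6 rose and none fell, 15 had a positive log2 fold change, and the median was 0.68. Col3a1, a fibrillar collagen, read 2013, 1165, 2395 and 1286 CPM in HFD and 3099.6 to 5364 CPM (median 4418) in Ensure (log2 fold change 1.33 ± 0.28, adjusted p = 0.0133). Col5a3 read 848, 898, 986 and 649.9 CPM and 1635 to 2061 CPM (median 1784) (log2 fold change 1.10 ± 0.20, adjusted p = 0.00552). Col1a1 read 602, 325, 574 and 361 CPM and 622 to 1295 CPM (median 967) (log2 fold change 1.05 ± 0.25, adjusted p = 0.0246), with HFD 21 just below the lowest Ensure library. The basement membrane genes Col4a1 and Col4a2 rose by 0.84 ± 0.21 (adjusted p = 0.0336) and 0.89 ± 0.22 (adjusted p = 0.0318), and Col8a1 by 0.68 ± 0.18 (adjusted p = 0.0449).

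HFD 25 was the highest HFD library in 4 of the 6 called collagens and Ensure 9 the lowest Ensure library in 4. Col5a3 was called with any 1 library left out; without HFD 22 or HFD 27 it was the only collagen called, without Ensure 1 there were 2, without HFD 21, Ensure 10 or Ensure 12 there were 3, and without Ensure fasted 5 there were 12. Eln, elastin, read 172, 143, 115 and 108 CPM in HFD and 321 to 704 CPM (median 597) in Ensure (log2 fold change 2.06 ± 0.32, adjusted p = 0.00211; 1.75 within lane 7), and kept its call under each of those omissions. Of 18 elastic fibre genes 3 rose and none fell, Eln with Mfap4 (1.78 ± 0.42, adjusted p = 0.0243) and Emilin1 (0.48 ± 0.12, adjusted p = 0.0367). Fbn2, a fibrillin of developing elastic fibres, was not on the list and rose by 3.13 ± 0.76 on the log2 scale (adjusted p = 0.027) from 1.04, 0.315, 0.406 and 0.0930 CPM in HFD to 3.0 to 5.33 CPM (median 4.13) in Ensure. Fbn2 lost the call without HFD 22, 25 or 27 or Ensure 12, Mfap4 without HFD 22, 25 or 27 or Ensure 1, and Emilin1 without HFD 22 or 27 or Ensure 1 or 10. Without the 8 tract-rich libraries Col5a3, Col8a1, Eln and Fbn2 stayed called, and Col3a1 (adjusted p = 0.0618), Col1a1 (0.0974), Col4a1 (0.0997), Col4a2 (0.104), Mfap4 (0.0561) and Emilin1 (0.0845) did not.

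Matrix proteases split. Mmp11, a stromal protease, read 40.0, 42.8, 37.6 and 56.2 CPM in HFD and 11.3 to 14.5 CPM (median 13.3) in Ensure (log2 fold change -1.74 ± 0.26, adjusted p = 0.00187), with a narrow spread in both diets. Mmp9, a gelatinase of neutrophils and macrophages, read 5.39, 8.41, 3.55 and 7.81 CPM and 12.8 to 58.7 CPM (median 22.5) (log2 fold change 2.14 ± 0.56, adjusted p = 0.0397; 1.02 within lane 7); its call was lost without any 1 HFD library or without Ensure 1, 9, 10 or 16. With Mmp12 these were the 3 called of 16. Among stromal progenitor markers, 2 of 12 fell: Pdgfra, the receptor that marks adipocyte progenitors, at 138, 136, 143 and 164 CPM and 56.6 to 80.1 CPM (median 76.3) (log2 fold change -0.98 ± 0.15, adjusted p = 0.00254), and the proteoglycan Dcn at 1575, 1646, 1600.2 and 2037 CPM and 862 to 1088 CPM (median 959) (log2 fold change -0.84 ± 0.14, adjusted p = 0.00415). The other members of the list did not pass: 6 of the 12 had a positive log2 fold change and the median was 0.00782. The 12 markers summed to 2690 to 3290 CPM in HFD and 1840 to 2410 CPM in Ensure, but to 911 to 1100 CPM and 918 to 1240 CPM without Dcn and Pdgfra. By edgeR 0 of 14 endothelial markers were called (2 unadjusted; DESeq2 0, limma-voom 1), and 1 of 10 smooth muscle markers, Synpo2, was lower (-1.10 ± 0.28, adjusted p = 0.0323; lost without 8 of the 19 libraries). Mmp11, Pdgfra and Dcn stayed called without the 8 tract-rich libraries and Mmp9 and Synpo2 did not.

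Some of the widest differences among called genes lay outside the lists. Serpina3b, a serine protease inhibitor of a multigene family whose copies can share reads, read 2.32, 2.36, 1.47 and 1.49 CPM in HFD and 14.8 to 32.6 CPM (median 22.8) in Ensure. It had the smallest adjusted p of the named genes, at 3.61 ± 0.32 on the log2 scale (adjusted p = 3.68e-05). Angptl7, an angiopoietin-like secreted protein, read 0.290, 0.263, 0.0508 and 0.790 CPM and 1.59 to 6.56 CPM (median 2.25) (log2 fold change 3.27 ± 0.84, adjusted p = 0.0361), and lost the call without HFD 21, 22 or 25 or Ensure 10, 12 or 16, and without the 8 tract-rich libraries.

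On the lower side, Gpr50, a receptor related to the melatonin receptors, read 35.9, 7.25, 46.1 and 14.1 CPM in HFD and 0 to 0.470 CPM (median 0.177) in Ensure, where 3 counts are 0.142 to 0.171 CPM. The fitted log2 fold change of -7.08 ± 1.08 (adjusted p = 0.00188) is therefore uncertain in size, as is that of Sbk2 (3.23, 4.52, 1.22 and 3.25 CPM against 0 to 0.462 CPM (median 0.0760); -4.51 ± 0.75, adjusted p = 0.00364). Inmt, an N-methyltransferase, read 72.9, 144, 49.4 and 198 CPM and 5.12 to 24.3 CPM (median 9.00) (log2 fold change -3.41 ± 0.51, adjusted p = 0.00172), with HFD 27 highest and HFD 25 lowest. Myh15, a myosin heavy chain, read 8.87, 1.63, 17.0 and 13.9 CPM and 0.293 to 1.29 CPM (median 0.513) (log2 fold change -4.04 ± 0.79, adjusted p = 0.00874), and Tm4sf19, a tetraspanin-like protein, 17.0, 3.0, 17.7 and 10.3 CPM and 0.310 to 2.68 CPM (median 0.557) (log2 fold change -3.72 ± 0.96, adjusted p = 0.0361). Both were lowest of their group in HFD 22, as were the lipid-associated macrophage genes; Tm4sf19 lost the call without HFD 21, 25 or 27 or Ensure 1, 9, 10, 12 or 16, and neither was called without the 8 tract-rich libraries. Trdn, a protein of the muscle calcium release complex, read 9.03, 6.04, 27.6 and 7.95 CPM and 0.103 to 2.57 CPM (median 0.957) (log2 fold change -3.40 ± 0.71, adjusted p = 0.0127).

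The diet difference was measured a second time in the mice at 24 hours without feeding, in 4 HFD and 5 Ensure libraries that the fed comparison does not use. The 2 comparisons share the estimate of spread. After fasting diet and lane coincide fully, since all 4 HFD libraries were run on lane 7 and the 5 Ensure libraries on lanes 5 and 6. Diet and lane therefore cannot be told apart in the fasted comparison. After fasting 452 genes were called (2.82% of those tested), 261 higher (1.63%) and 191 lower (1.19%) with Ensure. Of the 335 genes higher in the fed comparison 304 had a positive log2 fold change after fasting, as had 52.3% of all genes, and 91 were called higher, which is 27.2% of the 335 and 34.9% of the 261. Of the 347 lower genes 312 had a negative value and 80 were called lower, 23.1% of the 347 and 41.9% of the 191. No gene was called in opposite directions. Across all tested genes, which are not independent replicates, the 2 sets of log2 fold changes had a Pearson r of 0.551 and a Spearman rho of 0.413.

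The lists with most calls differed in how many of their fed calls were also called after fasting. All 8 called mast cell genes were called lower after fasting as well, where Mcpt4 had a log2 fold change of -3.32 and Cma1 of -3.30. Of the 6 called lipid-associated macrophage genes 4 were called lower after fasting, and Atp6v0d2 and Trem2 were not. Cd9 and Ctsk were called there and not in the fed comparison. The median of the list was -2.74. Its sum overlapped between diets, at 8060, 1170, 2310 and 24000 CPM in HFD fasted 23, 24, 26 and 28. In Ensure it was 416 to 944 CPM, and 3030 CPM in Ensure fasted 8. The mast cell sum was 132 to 540 CPM in HFD and 41.9 to 117 CPM in Ensure, except 183 CPM in Ensure fasted 5. That library also held 9740 CPM of epididymis genes and 10700 CPM of smooth muscle genes. Of the 6 called collagens 5 were called higher after fasting, among 8 in all, with a median of 0.95. Of the 9 called fatty acid synthesis genes 5 were called higher, and the median of the list was 0.86, with Acly at 0.85, Fasn at 1.63 and Elovl6, of the elongases, at 3.08. Of the 6 called cholesterol synthesis genes 0 were called after fasting, where the median of the list was 0.33.

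Whether a fed difference had another size after fasting was tested directly. No gene passed that test by edgeR (0 called, 1234 at an unadjusted p under 0.05, smallest adjusted p = 0.302), while DESeq2 called 65 and limma-voom 1170. Some of the named genes far from equal are given as values. Dio2 differed by -0.39 after fasting against 3.02 when fed (difference 3.41 ± 1.07, adjusted p = 0.525). Nnat had -0.37 against -1.96 (difference -1.60 ± 0.46, adjusted p = 0.461), Sbk2 -0.84 against -4.51 (difference -3.67 ± 1.02, adjusted p = 0.459) and Acly 0.85 against 1.86 (difference 1.01 ± 0.29, adjusted p = 0.461). A p above the threshold does not show that the diet difference was the same in both states.

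**Figure D5:**
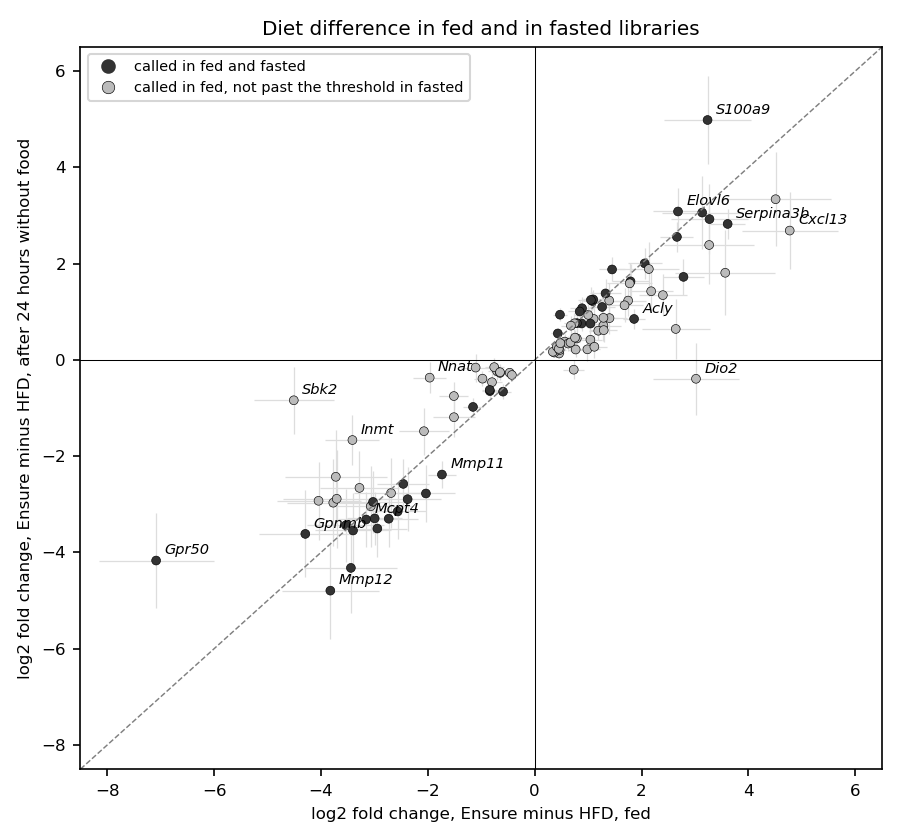
Log2 fold change, Ensure minus HFD, of the 104 called genes described in the text or named by rule, in fed libraries (x axis) and after 24 hours without feeding (y axis), with bars of 1 standard error; the dashed line marks equal values. Dark points were called in both comparisons and light points in the fed one, without passing the threshold after fasting. Among the points away from the line are Dio2, at 3.02 fed and -0.39 fasted, and Sbk2, at -4.51 and -0.84.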

How the data were processed

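RNA was measured in whole perigonadal fat by polyadenylated RNA sequencing, with an RNeasy extraction, a TruSeq RNA kit and a HiSeq2000, per the labels' protocols. Per the submitters' processing notes, the tools were HTSeq 0.6.1, TopHat2 2.1 and bcl2fastq 1.8.4 and the build was mm9; strand and other settings were not given in the sources used here. Deposited by the authors were whole-number read counts per gene symbol and library, not normalized, for 24348 genes, 3202 of them at 0 in all libraries. Overlapping genes and near-identical copies may share reads or lose them. Reads outside genes (13.01 to 15.17% in fed libraries) and the other summary lines were left out of library sizes and tests.

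Groups came from the labels (HFD fed, n = 4; Ensure fed, n = 6; HFD fasted, n = 4; Ensure fasted, n = 5). Genes were tested by the quasi-likelihood F test of edgeR (R 4.3.3, edgeR 4.0.16), fitted once to all 19 libraries in 4 groups, which share 1 estimate of spread. Scaling was by TMM, and filterByExpr with its minimum count set to 10 chose the genes. Contrasts were Ensure minus HFD in fed and in fasted libraries and the difference of the 2. P-values were adjusted by Benjamini-Hochberg over 16015 genes, and called means an adjusted p under 0.05. The standard error of a log2 fold change is its size divided by the square root of F. Levels are TMM-scaled CPM; the floor of 3 counts covers counting error only. The 21 pairs of fed libraries within a group had a chi-square per gene between 6.77 and 88.2, so none was counted as a repeat. The test was tried on simulated data first.

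Named genes are up to 12 higher and 12 lower by log2 fold change among called genes with no overlap between diets and a mean of at least 1 CPM, passing over predicted names; up to 4 members per list by p; and 12 fixed genes. Members and the 52 lists (836 of 839 symbols present) were chosen with earlier results of these data known, and other called list members are described too; some genes are not reported here. Lists are described by counts and medians. Promoter windows are RefSeq's on GRCm38.p6; 11990 tested genes had one. Alternatives were DESeq2 1.42.0 and limma 3.58.1 (voom with quality weights), other scalings and filters, a lane term, lane 7 alone, the fed libraries alone, libraries rich in tract genes left out, and each library left out in turn.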

Additional observations from a re-analysis of the deposited data

Results flagged for a closer look

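In 252 sets of values, each 1 gene or marker sum in 1 fed group, 30 had 1 library apart from the rest by Dixon's criterion. Chance gives about 1 in 20 where values spread normally. The CPM were not log-transformed and many of the genes vary together, so an excess over that rate cannot be judged. All values are TMM-scaled CPM, with the range of the other libraries of the group after each.

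HFD 25 stood highest of 4 for 7 of them. Among lipid genes it held 217 CPM of Acss2 (others 88.2 to 110), 365 CPM of Slc25a1 (199 to 219), 406 CPM of Me1 (204 to 236), 58.9 CPM of Pmvk (33.5 to 37.6) and 22.0 CPM of Lpin3 (15.7 to 16.3). It also held 27.6 CPM of Trdn (6.04 to 9.03) and a neutrophil marker sum of 43.1 CPM (14.3 to 19.2). HFD 22 stood lowest for Trem2 at 41.3 CPM (109 to 120), HFD 27 highest for Dcn at 2040 CPM (1580 to 1650), and HFD 21 highest for the tract epithelium sum at 293 CPM (3.4 to 27.1).

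Ensure 9 stood highest of 6 for the myeloid genes Fpr1 at 15.5 CPM (0.547 to 2.84) and Irg1 at 9.29 CPM (0.845 to 2.35) and for the macrophage marker sum at 3770 CPM (2000 to 2590). It was also highest for Acaca at 503 CPM (296 to 357), Pdhb at 146 CPM (120 to 128) and Sbk2 at 0.462 CPM (0 to 0.149), and lowest for Tpsb2 at 2.41 CPM (4.86 to 5.22).

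Ensure 10 stood highest for Pmvk at 118 CPM (86.5 to 93.7), Cyp51 at 130 CPM (96.3 to 107) and Slc27a4 at 93.2 CPM (71.7 to 78.5), and lowest for Pdgfra at 56.6 CPM (74.6 to 80.1). Its neutrophil sum was 126 CPM (46.4 to 66), its epididymis sum 581 CPM (7.85 to 208) and its sperm cell sum 77.1 CPM (0.763 to 9.46). Ensure 16 stood highest for the tract epithelium sum at 293 CPM (1.94 to 61.8) and for Inmt at 24.3 CPM (5.12 to 12.1). Ensure 18 stood highest for Myh15 at 1.29 CPM (0.293 to 0.642), Tm4sf19 at 2.68 CPM (0.31 to 0.938) and Atf3 at 15.8 CPM (8.11 to 10), and Ensure 1 for Cox7a1 at 6.57 CPM (4.82 to 5.27).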

How the results depend on the processing

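All 682 fed calls kept their direction in each alternative that tested them, but the number of calls moved widely. DESeq2 called 1551 genes (906 higher, 645 lower), limma-voom 5441 (2420, 3021) and a fit of the fed libraries alone 2933 (1443, 1490), against 682 (335, 347). A lane term left 2 (2, 0), lane 7 alone 4 (4, 0), and leaving out the 8 libraries rich in tract genes or Cdh16 213 (115, 98); fewer libraries enter the last 2. DESeq2's size factors in edgeR, total counts, no filter, a stricter filter and leaving out 5 tract-rich libraries gave 818, 853, 572, 776 and 528. With each library left out in turn there were 239 to 1618 calls, 130 to 1002 higher and 100 to 616 lower: 339 without HFD 21, 301 without HFD 22, 239 without HFD 27, 419, 426 and 408 without Ensure 1, 10 and 12, 1618 without HFD fasted 28 and 1384 without Ensure fasted 5. The cause was not tested. The fasted contrast (452) had 1295 calls by DESeq2, 3418 by limma-voom, 0 with a lane term, 1598 without the 8 libraries and 209 to 767 with each left out; the difference of the contrasts (0) had 65, 1170 and, without the 8, 1.

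Of 104 called genes described or named, 104 stayed called by DESeq2 and 46 without the 8 libraries. By limma-voom 101 stayed called, and Cxcl13 (adjusted p = 0.0523), Fpr1 (0.154) and Irg1 (0.0661) did not. Signs reversed for 3 uncalled genes. Scd1 was 0.142 without HFD 22 (-0.209 to 0.142 with each library left out). Mest was 0.121 by limma-voom, 0.183 with a lane term and in lane 7, and 0.0543 without HFD 25 (-0.221 to 0.0543 with each left out). Slc2a4 was -0.0303 with total counts, -0.00162 with the stricter filter, -0.0854 by limma-voom and -0.00325 without the 8 libraries (-0.114 to 0.218 with each left out; negative without HFD 21, HFD 25 or Ensure 9). No paired analysis was possible because the numbers in the titles are not shared between groups.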
